A study of Mus musculus with 3 samples.

Results

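Of 3629 long-term hematopoietic stem cells (HSCs) with usable antibody counts, 416 held at least 1 antibody tag for CD68, CD163 or CD206, which are markers of macrophages, and 3213 held none. The cells were grouped by these tags alone. A cell entered with 10 or more tags summed over 12 antibodies, it was called tagged if its CD68, CD163 and CD206 counts summed to 1 or more, and it was called untagged at a sum of 0. The tagged share was 11.5% (exact binomial 95% interval 10.4 to 12.5). Tag counts and the groups come from the same measurement, so the tag counts of the 3 macrophage antibodies describe the groups, and the open chromatin of the same cells is the readout that the grouping did not use.

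The cells came from bone marrow of wild-type C57BL/6 female mice (C57BL6/J in the study's methods) aged 24 months, and were profiled by DOGMA-seq, which reads open chromatin (ATAC), RNA and antibody tags from 1 cell. Marrow was enriched for c-Kit, blocked against Fc receptor binding, stained, and sorted for CD150+CD48-CD34- cells within the Lin-Sca-1+c-Kit+ fraction, a gate whose lineage cocktail holds Mac-1 and Gr-1 and so removes cells that carry these myeloid markers. Tagged and untagged cells share strain, sex, age, genotype, sort and library. All cells come from 1 pool, and the sources used here do not say how many mice gave cells to it, so each group is 1 sample, no test was made, and every interval below covers counting error only.

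Macrophages of the marrow engulf dying cells and the nuclei shed by maturing red cells, and recycle their iron. CD68 is a glycoprotein of their lysosomes and endosomes, CD163 is the scavenger receptor that takes up haemoglobin bound to haptoglobin, and CD206, encoded by Mrc1, is the mannose receptor. An antibody tag in CITE-seq is a short oligonucleotide carried by the antibody and sequenced with the cell's barcode, so a tag can reach a droplet on a cell that bears the antigen, on a cell that binds the antibody by other means, or free in the fluid. Which of these gave the tags seen here was not tested.

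The tags of the 3 macrophage antibodies are shown first, because they define the groups, with those of the other 3 antibodies that the study conjugated itself through streptavidin and a biotinylated oligonucleotide. The remaining 6 antibodies (CD27, CD61, CD201, CD274, CD357 and P2X7R) were bought with their tags (TotalSeq-A).
CD68: ctttctttcacggga
CD163: gacgcgcgttgtca
CD206: ggtcgactaggtcg
CD106: cgttcctacctacct
CD183: cgtcctaggacata
MERTK: gacgaacgtccgcg
The tags were 14 or 15 bases long. Among the 30 pairs that include a macrophage antibody, the smallest edit distance was 6, and the smallest among all 66 pairs was 5, so that no pair of tags was separated by a single base change. The deposited tag list gives the CD106 tag a descriptive name that reads CD68, under another catalogue number, and the tags are named here by their identifiers. Were the identifiers of these 2 tags wrong instead, the grouping would change, since CD106 tags were in 920 cells, and so would every CD68 and CD106 value below.

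Macrophage tags were rare and mostly single. A sum of 1 was found in 331 cells (79.6% of tagged cells), a sum of 2 in 59 cells and a sum of 3 or more in 26 cells. CD68 was the most frequent, with 406 tags in 281 cells (7.74%, interval 6.89 to 8.66). CD206 gave 84 tags in 82 cells (2.26%, 1.80 to 2.80) and CD163 gave 93 tags in 71 cells (1.96%, 1.53 to 2.46). The 3 antibodies made up 0.355%, 0.0735% and 0.0813% of all antibody tags. CD206 never exceeded 2 tags in a cell, and its variance over cells was 1.02 times its mean, a ratio that says little at so low a mean. The same ratio was 1.68 for CD163 and 1.87 for CD68 with the cell of most tags left out, and 1.86 and 3.28 with it. At the edge of the grouping, 33 cells had exactly 10 tags, of which 1 was tagged, and 36 cells had 1 tag fewer, of which 3 held a macrophage tag and were left out. In 2 tagged cells the macrophage tags themselves carried the total to the minimum.

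**Figure D1:**
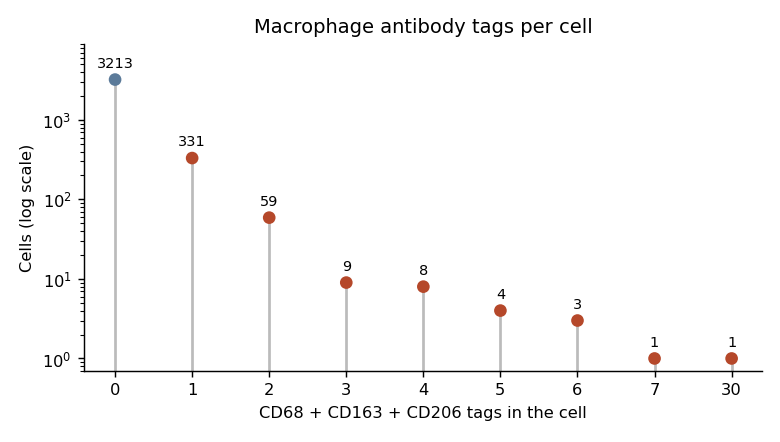
Number of cells (vertical axis, log scale) at each sum of CD68, CD163 and CD206 tags (horizontal axis, categories, with no cells between 7 and 30). Blue marks the 3213 untagged cells and red the tagged cells, of which 331 hold a single tag.

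The 3 tags seldom met in 1 cell. CD68 alone was found in 264 cells, CD206 alone in 73 and CD163 alone in 61. CD68 and CD163 were found together in 9 cells, against 5.50 that independent scattering of both tags would give (ratio 1.64, exact Poisson interval 0.749 to 3.11). CD68 and CD206 met in 8 cells against 6.35 (1.26, 0.544 to 2.48), and CD163 and CD206 in 1 cell against 1.60 (0.623, 0.0158 to 3.47). No cell held all 3 tags, which allows a share of up to 0.0827% of cells. Each of the 3 intervals includes 1.

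Open chromatin at macrophage genes was not higher in tagged cells. Tagged cells held 4464144 nuclear fragments, 11.6% of the total, so a gene equally open in both groups has about this share of its fragments in tagged cells. Over 31 macrophage genes, each with 2000 bp upstream, 3340 fragments fell in tagged and 26810 in untagged cells, or 748 and 788 FPM (fragments scaled to 1000000 nuclear fragments). The log2 ratio of tagged over untagged cells was -0.07 (exact conditional binomial interval -0.13 to -0.02). This lower value turned on Cx3cr1, the fractalkine receptor (1230 and 10494 fragments, -0.16, -0.25 to -0.08), whose annotated span of 168 kb holds 5 other protein-coding genes (Csrnp1, Gorasp1, Ttc21a, Wdr48 and Xirp1) and took 38.9% of the list's fragments. Without Cx3cr1, the other 30 genes gave 2110 and 16316 fragments and a log2 ratio of -0.02 (-0.09 to 0.05). Within 1000 bp of the start, the 31 genes gave 751 and 5946 fragments and -0.05 (-0.17 to 0.06). The upper ends of the 3 intervals were a ratio of 0.985 for the 31 genes, 1.03 without Cx3cr1 and 1.04 at promoters.

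Single macrophage genes were scattered around 0. All 31 had at least 20 fragments, 17 of them were above 0 and 14 below, with a median of 0.02 beside 0.01 over 26640 genes with as many fragments. Among the 20514 genes with at least 200 fragments, 0.21% were 1.5 times or more higher in tagged cells and 0.536% were lower by as much. Of the 20 macrophage genes with 200 fragments, 0 passed in either direction. The count of genes with an interval below 0 was 1 of 31 (Cx3cr1), and 0 had an interval above 0. Over all genes with 20 fragments these shares were 2.60% and 2.94%.

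For the genes that encode the 3 antigens, no difference could be told from 0 in the cells tagged for them. Cd68 (ENSMUSG00000018774.13, chr11:69664213-69666153, mm10) had 60 fragments in tagged and 452 in untagged cells, a log2 ratio of 0.03 (-0.40 to 0.41). In the 281 cells with a CD68 tag it had 38 fragments and a log2 ratio of -0.07 (-0.61 to 0.39). Cd163 (ENSMUSG00000008845.9, chr6:124304656-124330527) had 72 and 460 fragments (0.26, -0.12 to 0.62), and in the 71 cells with a CD163 tag it had 14 (0.53, -0.40 to 1.24). Mrc1 (ENSMUSG00000026712.3, chr2:14229392-14332057) had 130 and 1121 (-0.17, -0.45 to 0.09), and in the 82 cells with a CD206 tag it had 19 (-0.55, -1.32 to 0.07). Each of these intervals includes 0, and those of the cells tagged by 1 antibody are wide, with upper ends of 0.39, 1.24 and 0.07.

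The promoters of the 3 antigen genes differed from each other far more than between groups. Levels are given as FPM per kb within 1000 bp of the start. Cd68 stood at 5.26 in tagged and 4.69 in untagged cells, near the median of 4.96 over 21910 protein-coding genes. Cd163 stood at 0.112 and 0.132, from 1 and 9 fragments, and Mrc1 at 0.560 and 0.823, from 5 and 56 fragments. A fragment at the Cd68 promoter was found in 36 tagged cells (8.65%) and in 278 untagged cells (8.65%). Procr, which encodes the stem cell antigen CD201 (EPCR), stood at 4.37 and 3.89. The median over 1134 olfactory receptor genes, which blood cells keep closed, was 0.0130 over both groups.

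The 250 bases before the RefSeq start of these genes are shown so that the promoter of Cd68 and the far less open ones of Cd163 and Mrc1 can be read beside each other, with Procr as a stem cell gene (RefSeq, GRCm38.p6, 5′ to 3′ along the gene). Fragments were counted from the GENCODE start, and for Mrc1 and Procr the RefSeq start lies downstream of it, so these stretches run past the GENCODE start. Capitals mark the letters GAGGAA or their reverse complement, a form bound by PU.1 that is longer than the GGAA core shared by ETS factors.
Cd68 (chr11:69666171-69666420, minus strand): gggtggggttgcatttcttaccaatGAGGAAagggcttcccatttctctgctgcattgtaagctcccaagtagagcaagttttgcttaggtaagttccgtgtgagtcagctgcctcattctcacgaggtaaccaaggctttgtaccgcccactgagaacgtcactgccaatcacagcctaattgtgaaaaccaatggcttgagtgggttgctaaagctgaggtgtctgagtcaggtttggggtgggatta
Cd163 (chr6:124304401-124304650, plus strand): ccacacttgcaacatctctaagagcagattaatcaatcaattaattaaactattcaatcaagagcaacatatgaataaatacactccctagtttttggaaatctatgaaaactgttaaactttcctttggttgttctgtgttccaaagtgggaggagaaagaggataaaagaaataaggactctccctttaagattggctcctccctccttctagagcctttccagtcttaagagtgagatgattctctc
Mrc1 (chr2:14229164-14229413, plus strand): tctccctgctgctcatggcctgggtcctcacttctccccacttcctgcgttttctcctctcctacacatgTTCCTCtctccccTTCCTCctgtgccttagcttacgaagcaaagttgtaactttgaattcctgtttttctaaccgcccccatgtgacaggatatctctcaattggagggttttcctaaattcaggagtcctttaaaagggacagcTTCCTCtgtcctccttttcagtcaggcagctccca
Procr (chr2:155750967-155751216, plus strand): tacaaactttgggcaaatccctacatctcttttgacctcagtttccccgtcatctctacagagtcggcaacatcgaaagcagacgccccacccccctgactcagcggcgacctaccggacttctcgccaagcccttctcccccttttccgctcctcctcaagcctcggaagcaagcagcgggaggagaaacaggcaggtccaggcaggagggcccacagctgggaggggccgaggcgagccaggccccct
Cd68 held 1 match and Mrc1 3, and Cd163 and Procr none. The shorter GGAA core is not marked, and the Cd163 and Procr stretches hold it too. The letters were found in 23.3% of 32851 windows of the same length. Of the macrophage genes, 20 had a window and 13 of them held a match, as did 7 of 18 HSC genes and 25.9% of all 27025 genes.

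Genes that mark resident macrophages were spread on both sides of 0. Adgre1, which encodes F4/80, had 13 fragments in tagged and 115 in untagged cells over its whole span of more than 100 kb (-0.17, -1.17 to 0.62), and 4 and 25 at its promoter. The complement genes C1qa, C1qb and C1qc, which macrophages of many tissues express strongly, had 7 and 94, 9 and 60, and 57 and 403 fragments (-0.72, 0.26 and 0.12), with each interval spanning 0. Vsig4, a complement receptor of resident macrophages, had the highest value of the list, with 16 and 74 fragments (0.76, -0.16 to 1.51). Timd4, a receptor for phosphatidylserine on dying cells, had 18 and 182 (-0.37, -1.19 to 0.29), and Mertk, another receptor of this kind and the target of a further antibody of the panel, had 325 and 2348 (0.08, -0.09 to 0.25). Siglec1, the sialoadhesin of marrow macrophages, had 28 and 207 (0.07), and Csf1r, the receptor for the macrophage growth factor CSF1, had 230 and 1663 (0.08, -0.13 to 0.28), of which 3 and 17 lay at its promoter. For iron handling, Slc40a1, which encodes the iron exporter ferroportin, had 63 and 463 (0.06), Hmox1, which breaks down haem, had 98 and 735 (0.03), and Spic, the factor of red-pulp and marrow macrophages that recycle iron, had 19 and 138 (0.10). The interval of each of these genes includes 0.

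Genes for factors that direct macrophage fate were close to 0 as a list. Over 11 such genes, 2186 and 16420 fragments gave a log2 ratio of 0.02 (-0.04 to 0.09), and at promoters the value was 0.00 (-0.09 to 0.10). In the 71 cells with a CD163 tag it was 0.16 (0.02 to 0.31) over genes and 0.20 (-0.01 to 0.39) at promoters. In these cells the list of HSC genes was also above 0 over genes, at 0.065 (0.003 to 0.126). Their macrophage list stood at -0.02 (-0.14 to 0.10) over genes. A value above 0 in these cells was thus not confined to the factor list. In cells with a CD68 or a CD206 tag the factor list stood at 0.02 and -0.06 over genes, with intervals that include 0. Spi1, which encodes PU.1, had 385 and 2872 fragments (0.03, -0.13 to 0.19), and 21.6% of tagged and 20.3% of untagged cells held a fragment at its promoter. Irf8 had 203 and 1434 (0.11, -0.11 to 0.32), Cebpa 175 and 1300 (0.04) and Cebpb 219 and 1642 (0.03). At its promoter, Nr1h3, which encodes the sterol sensor LXR alpha, was lower in tagged cells, with 65 and 711 fragments (-0.51, -0.91 to -0.15), while over the whole gene it stood at -0.01 (-0.22 to 0.19).

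Of the 15 lists, that of Fc receptor genes lay farthest from 0, towards lower values in tagged cells. It also had the fewest genes and fragments of the 15, so counting error alone can move it most. Fc receptors bind the constant part of antibodies and can hold a staining antibody on a cell that lacks its antigen. Over 5 genes, 132 and 1226 fragments gave a log2 ratio of -0.28 (-0.55 to -0.02), and 51 and 566 at promoters gave -0.53 (-0.98 to -0.13). The 5 genes were each below 0 over the whole gene (Fcer1g -0.30, Fcgr1 -0.21, Fcgr2b -0.20, Fcgr3 -0.22 and Fcgr4 -0.70), with each interval including 0. At promoters, Fcgr1, the high-affinity receptor for IgG, accounted for most of the difference, with 9 and 165 fragments (-1.19, -2.42 to -0.31). The other 4 ranged from -0.85 to 0.18, and 3 of the 5 were below 0. Among promoters with at least 20 fragments, 2.53% had an interval below 0. Over whole genes the list stood at -0.30 (-0.61 to -0.01) in cells with 1 tag, at -0.43 (-1.29 to 0.23) in cells with 2 and at 0.24 (-0.73 to 0.97) in the 26 cells with 3 or more, the last from 13 fragments. By antibody it stood at -0.19 (-0.51 to 0.11) in the 281 cells with a CD68 tag, at -0.32 (-1.05 to 0.27) in those with a CD163 tag and at -0.60 (-1.35 to -0.01) in those with a CD206 tag, so in the largest of these groups the interval includes 0. At promoters it stood at -0.54 (-1.05 to -0.09) with 1 tag, from 40 fragments. With 2 and with 3 or more tags it stood at -0.90 and 0.30, with intervals that include 0. Promoters gave -0.25 (-0.76 to 0.18) for CD68, -1.46 (-3.51 to -0.26) for CD163 and -1.15 (-2.71 to -0.13) for CD206, the last 2 from 4 and 6 fragments.

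HSC genes differed little between the groups. Over 23 genes, 12787 and 96557 fragments gave 2864 and 2837 FPM and a log2 ratio of 0.01 (-0.01 to 0.04), and promoters gave 0.01 (-0.05 to 0.07). The median promoter level of the HSC list was 8.70 FPM per kb over both groups, beside 0.766 for the macrophage list. By gene, 14 were above 0 and 9 below, and 0 of 23 passed the 1.5-fold limit (0.21% and 0.536% of all genes with 200 fragments passed it upwards and downwards). Procr had 54 and 399 fragments (0.06, -0.39 to 0.46), Slamf1, which encodes the sorting marker CD150, had 144 and 1141 (-0.05, -0.32 to 0.20), and Kit had 583 and 4295 (0.05, -0.08 to 0.17). The stem cell factors Mecom (2057 and 15955, -0.02), Hlf (661 and 4851, 0.06), Meis1 (998 and 8122, -0.09) and Runx1 (1425 and 10622, 0.03) had intervals that include 0. Prdm16, a factor needed to maintain stem cells, had 1854 and 12966 fragments (0.12, 0.05 to 0.19), and was the 1 gene of 23 with an interval above 0, beside 2.94% of all genes with 20 fragments. None had an interval below 0. Its promoter gave -0.07 (-0.30 to 0.14). Ly6a, which encodes Sca-1, had the highest value, from few fragments (35 and 201, 0.43, -0.15 to 0.93).

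Among the genes for the other 9 antigens, Tnfrsf18, which encodes CD357 (GITR), was higher in tagged cells, with 53 and 279 fragments (0.55, 0.08 to 0.96) and with 47 and 243 at its promoter (0.57, 0.08 to 1.02). An interval above 0 was found for 2.94% of all genes and 3.03% of all promoters with 20 fragments. Its antibody gave 3.45 tags per tagged and 3.23 per untagged cell (ratio 1.07). The remaining antigen genes had intervals that include 0, from Vcam1 at -0.11 (22 and 184 fragments) to Cxcr3 at 0.23 (81 and 529).

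Lists for other blood cells lay near 0 as well. Over whole genes, the monocyte list stood at 0.04, the neutrophil list at -0.06, the dendritic cell list at -0.02, the mast cell list at -0.09, the megakaryocyte list at 0.03, the erythroid list at 0.01, the B cell list at 0.03, the T and NK cell list at 0.00 and the list of endothelial and stromal genes at -0.00, and the interval of each includes 0. Of the 62 members of these 9 lists with 200 fragments, 1 passed the 1.5-fold limit, beside 0.21% of all genes upwards and 0.536% downwards. It was Elane, which encodes neutrophil elastase (26 and 309 fragments, -0.62, -1.28 to -0.06). Of 37 promoters with 200 fragments, 1 passed, that of Ccr9, a chemokine receptor (19 and 256, -0.79, -1.58 to -0.15). Both were named after their values were seen. A list of 18 scavenger and lysosome genes stood at -0.07 (-0.12 to -0.02). Its Lrp1, an endocytic receptor, gave 502 and 4535 fragments (-0.24, -0.38 to -0.11), and its lysosomal membrane genes Lamp1 (168 and 1542, -0.26) and Lamp2 (80 and 794, -0.37) were lower too, as was Stab1 (137 and 1257, -0.26), with 4 of 18 intervals below 0 and 0 above 0, beside 2.60% and 2.94% of all genes with 20 fragments. The list as a whole was not on 1 side, with 10 genes above 0 and 8 below and a median of 0.03. At promoters, 3 members had an interval below 0, the lysosomal protease gene Ctsb (100 and 954, -0.32, -0.64 to -0.03), Lamp1 (-0.26, -0.51 to -0.02) and Lamp2 (-0.45, -0.96 to -0.01), and 1 had an interval above 0, the lipoprotein receptor gene Scarb1 (161 and 989, 0.32, 0.06 to 0.55), beside 2.53% and 3.03% of all promoters with 20 fragments.

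**Figure D2:**
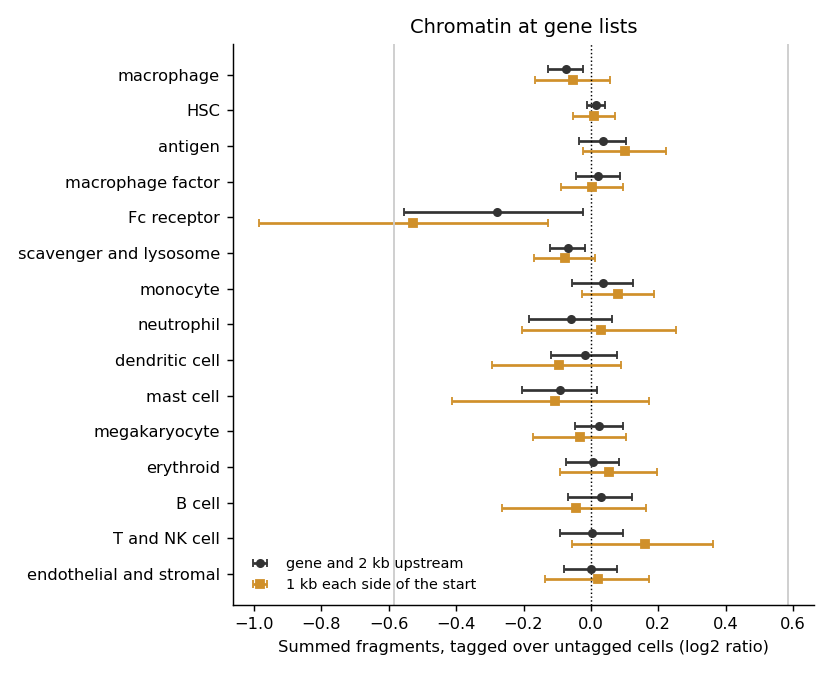
Log2 ratio of summed fragments, tagged over untagged cells (horizontal axis), for each gene list (vertical axis), over genes with 2000 bp upstream (black circles) and within 1000 bp of the start (orange squares). Bars are exact conditional binomial 95% intervals, and the grey lines mark 1.5-fold. The Fc receptor list is the one farthest from 0 and the one with the fewest fragments. The macrophage value of -0.07 over whole genes is -0.02 without Cx3cr1.

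Across the genome the groups differed little beyond counting. Of 20514 genes with at least 200 fragments, 43 were at least 1.5-fold higher and 110 as much lower, the median log2 ratio was 0.00, and the values ran from -1.23 to 1.05. All 153 genes had fewer than 1000 fragments, and of the 6323 genes with 1000 to 2000 fragments and the 6571 with more, 0 passed. Intervals lay above 0 for 3.18% and below 0 for 2.86% of genes. Ranked by the lower end of the interval, the top 5 were Scnn1b (47 and 175 fragments, 1.05, 0.54 to 1.51), Gm11739 (49 and 195, 0.95), 1700013M08Rik (55 and 227, 0.90), AC142100.1 (90 and 400, 0.78) and Pcbd1 (62 and 266, 0.84). Ranked by the upper end, the bottom 5 were Gm15334 (30 and 454, -0.97), 1700060C16Rik (11 and 205, -1.23, -2.31 to -0.42), Dkk1 (20 and 316, -1.02), Macc1 (48 and 634, -0.78) and Gm34099 (12 and 206, -1.12). None of the 10 is in a list used here. They include an epithelial sodium channel subunit (Scnn1b) and a Wnt antagonist (Dkk1), and 6 are annotated as antisense or lincRNA.

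More tags did not go with more macrophage chromatin. Cells with 1 tag gave a log2 ratio of -0.05 (-0.11 to 0.01) at the 31 macrophage genes, the 59 cells with 2 tags gave -0.21 (-0.35 to -0.07), and the 26 cells with 3 or more gave -0.10 (-0.29 to 0.09). Without Cx3cr1 the values were 0.03 (-0.04 to 0.10), -0.25 (-0.44 to -0.07) and -0.14 (-0.40 to 0.09). The HSC genes of the same cells stood at 0.01, 0.00 and 0.07. The 18 cells tagged by a pair of the 3 antibodies gave -0.28 (-0.56 to -0.03) at macrophage genes, from 122 fragments, and 0.04 (-0.08 to 0.16) at HSC genes.

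No group of tagged cells with macrophage-rich chromatin was seen one cell at a time. A tagged cell had a median of 7 and an untagged cell of 8 fragments at macrophage genes, or 725 and 763 FPM (quartiles 537 to 924 and 569 to 976). These counts include Cx3cr1, whose span took 38.9% of the list's fragments, and values per cell without it were not computed. The 95th percentile of untagged cells, 1346 FPM, was exceeded by 20 tagged cells (4.81%, 2.96 to 7.33), and the 99th percentile, 1668 FPM, by 2 (0.481%, 0.0583 to 1.73). At promoters 23 tagged cells (5.53%, 3.54 to 8.18) exceeded the 95th percentile of untagged cells. There Cx3cr1 gave 1 of 751 fragments in tagged and 44 of 5946 in untagged cells. Of the 15 cells with the highest share at macrophage genes, 1 was tagged, and of the 15 with the highest share at their promoters 2 were, beside 11.5% of all cells. The 17 cells with 4 or more tags had a median of 635 FPM at macrophage genes (366 to 1439), with 2 of them above the 95th percentile of untagged cells, and a median of 3173 at HSC genes, where the median of untagged cells was 2818.

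**Figure D3:**
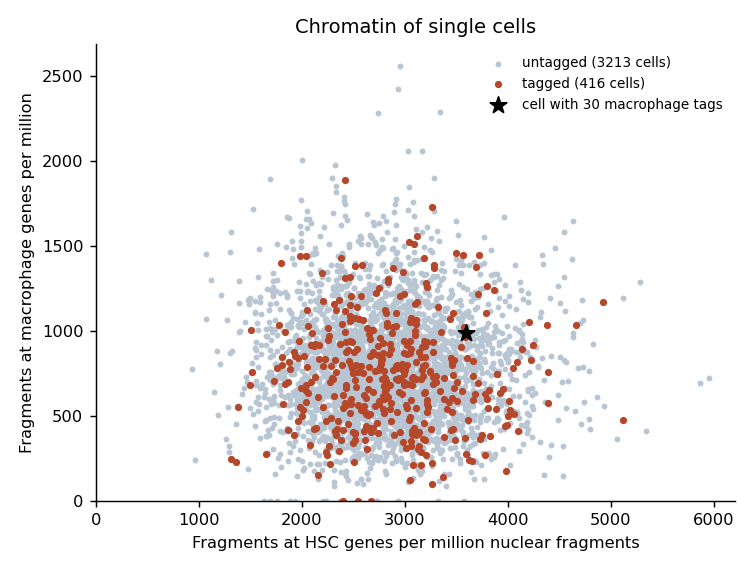
Fragments at 31 macrophage genes (vertical axis) against fragments at 23 HSC genes (horizontal axis), both in FPM, for each of 3213 untagged cells (pale blue-grey) and 416 tagged cells (red). The tagged cells lie within the cloud of untagged cells, and the cell with 30 macrophage tags (star) lies inside it at 988 and 3593 FPM. The macrophage genes include Cx3cr1, whose span took 38.9% of their fragments.

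The quality of tagged cells lay close to that of untagged cells. The comparison covers only cells of the antibody table, and 0 of those kept failed a chromatin filter. The 645 called cells absent from that table had a median of 1810 ATAC fragments and entered neither group, so shallow cells were mostly missing from both. The median was 10311.5 ATAC fragments in tagged and 10300 in untagged cells, and 2016.5 and 1966 RNA UMIs. The share of fragments in peaks was 67.7% and 67.5%, TSS enrichment was 6.08 and 6.11, the share of intronic UMIs was 36.4% and 36.6%, and mitochondrial reads were 0.221% and 0.214% of ATAC reads. The lowest 5% of cells by fragments held 24 tagged cells (5.77%, 3.73 to 8.46) and the lowest 5% by UMIs held 18 (4.33%, 2.58 to 6.75). Barcodes that the pipeline did not call as cells served as a background of droplets without an intact cell. They had 54.0% of fragments in peaks, 4.86% mitochondrial reads and 4.72% intronic UMIs, beside pooled values of 67.0%, 0.496% and 36.1% in tagged cells. Their fragments at HSC genes were 2479 FPM, beside 2864 in tagged and 2837 in untagged cells, and those at macrophage genes were 712 FPM, beside 748 and 788.

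**Figure D4:**
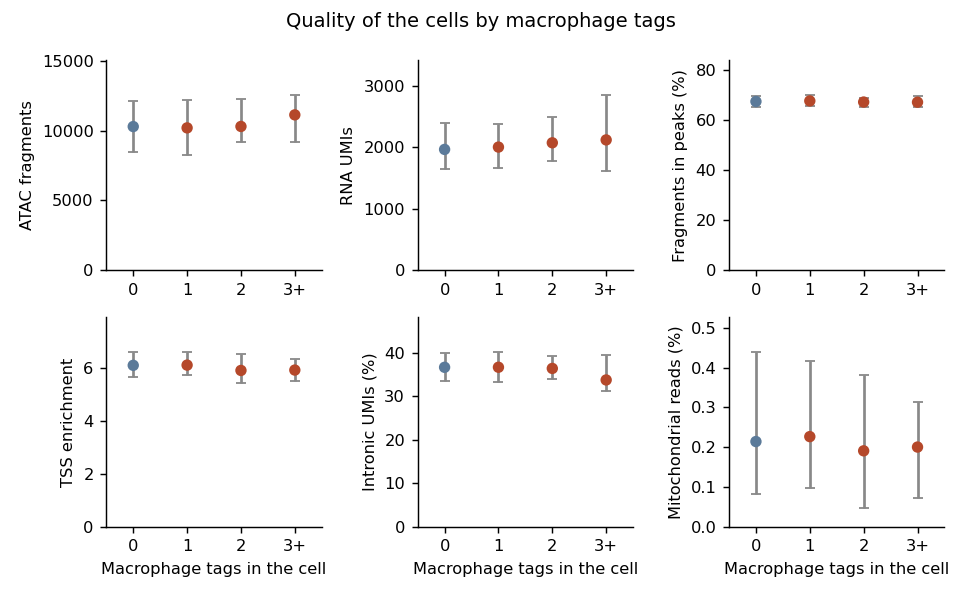
Median (points) and quartiles (bars) over cells of 6 quality measures (vertical axes, units on each) by the number of macrophage tags in the cell (horizontal axes, 0 in blue, others in red). The medians of cells with 1 tag lie beside those of cells with none, and cells with 3 or more tags have a median of 11140 fragments against 10300.

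Cells with an excess of sites covered by more than the usual number of fragments, which can mark a droplet with more than 1 cell, made up 9.13% of tagged (6.55 to 12.3) and 6.85% of untagged cells (6.00 to 7.78), and these intervals overlap. The part of such droplets in the tags was not tested. The log2 ratio at macrophage genes without them was -0.07 (-0.13 to -0.02).

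Tagged cells also held more tags of the other antibodies that were conjugated in house. CD106, the adhesion molecule VCAM1, gave 0.613 tags per tagged and 0.325 per untagged cell (ratio 1.89, interval 1.64 to 2.17). CD183, the chemokine receptor CXCR3, gave 0.149 and 0.0672 (2.22, 1.64 to 2.95), and MERTK 1.13 and 0.675 (1.67, 1.51 to 1.85). The 3 together gave a ratio of 1.77 (1.64 to 1.91), and 1.58 (1.46 to 1.72) without the cell of most macrophage tags. The 6 TotalSeq-A antibodies together gave 1.07 (1.05 to 1.09), from 0.903 for CD27 to 1.23 for P2X7R, and tags that matched no antibody gave 1.10 (1.04 to 1.15). The intervals of the in-house and the TotalSeq-A set do not overlap. They treat each tag as an independent count and are too narrow where tags gather in cells. Without the cell of most macrophage tags, the variance over cells was 2.29 times the mean for MERTK, 1.55 for CD106, 1.55 for CD183 and 6.73 for CD274. This split by conjugation was chosen after the values had been seen, and the minimum of 10 tags over 12 antibodies touches these counts in few cells.

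The difference was larger in cells with more macrophage tags. In cells with 1 tag the 3 other in-house antibodies stood at 1.23 times untagged cells (1.11 to 1.36), and in the 84 cells with 2 to 7 tags at 2.98 times (2.62 to 3.37), while the TotalSeq-A set stood at 1.06 and 1.09. At 1 tag and at 2 to 7 tags, CD106 stood at 1.26 (1.05 to 1.51) and 4.07 (3.31 to 4.95), CD183 at 1.12 (0.711 to 1.70) and 4.25 (2.66 to 6.49), and MERTK at 1.22 (1.07 to 1.39) and 2.33 (1.94 to 2.77). At 1 tag, the TotalSeq-A antibodies CD201 (1.20, 1.01 to 1.41) and P2X7R (1.16, 0.998 to 1.34) stood within these intervals. CD27, CD61, CD274 and CD357 stood at 0.919, 1.06, 1.07 and 1.04 there. CD274 gave 67.5% of all antibody tags, so the sum of the TotalSeq-A set mostly follows it. A tag of CD106, CD183 or MERTK was found in 82.1% of cells with 2 to 7 macrophage tags, beside 54.8% of untagged cells. The genes of these antigens, Vcam1, Cxcr3 and Mertk, stood at -0.11, 0.23 and 0.08 in open chromatin over all tagged cells, with intervals that include 0. What links the in-house tags was not tested. The in-house set also exceeded the TotalSeq-A set for each macrophage antibody with the cell of most tags left out. Cells with a CD68 tag stood at 1.75 (1.60 to 1.92) for the in-house and 1.08 (1.06 to 1.11) for the TotalSeq-A set, cells with a CD163 tag at 1.65 (1.36 to 1.97) and 1.01 (0.967 to 1.05), and cells with a CD206 tag at 1.42 (1.17 to 1.69) and 1.10 (1.06 to 1.15). For CD206 this rested on MERTK (1.59, 1.27 to 1.97), as CD106 (1.09, 0.725 to 1.57) and CD183 (1.27, 0.504 to 2.66) had intervals that include 1. The share of cells with such an in-house tag was 66.1% (60.2 to 71.6) for CD68 and 69.5% (58.4 to 79.2) for CD206. For CD163 it was 57.1% (44.7 to 68.9), an interval that includes the 54.8% of untagged cells. The CD163 difference thus lay in tags per cell and was not seen in the share of cells.

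**Figure D5:**
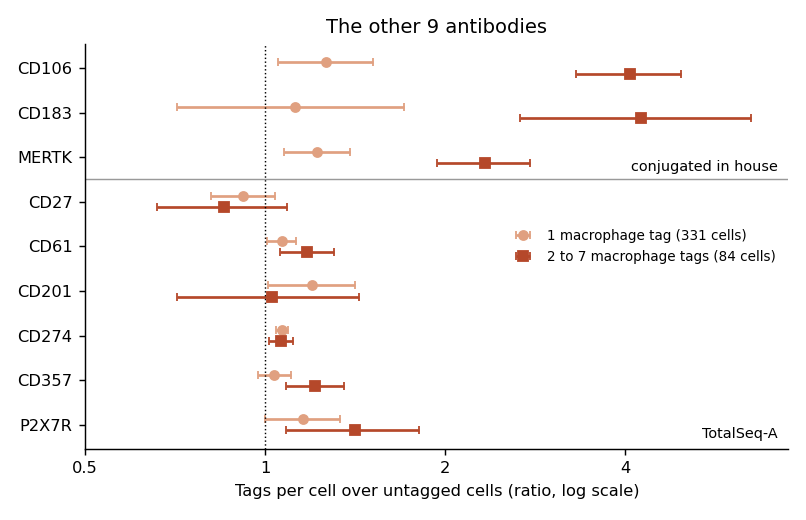
Tags per cell of each other antibody relative to untagged cells (horizontal axis, log scale, 1 means equal), for cells with 1 macrophage tag (light circles, 331 cells) and with 2 to 7 (dark squares, 84 cells). Bars are exact 95% intervals of the counts. In cells with 2 to 7 tags the 3 in-house antibodies lie at 2.33 to 4.25, and the 6 TotalSeq-A antibodies at 0.853 to 1.41.

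Counted as cells, CD68 and CD183 were found together in 31 cells against 17.4 that independent scattering would give (1.78, 1.21 to 2.53), CD68 and CD106 in 110 against 71.2 (1.54, 1.27 to 1.86), and CD206 and MERTK in 46 against 33.0 (1.39, 1.02 to 1.86). These are the 3 of 12 in-house pairs with a macrophage antibody whose interval lay above 1. The 12 include the pairs of CD68, CD163 and CD206 with each other, and their ratios ran from 0.623 to 1.78 with a median of 1.20. Over the 9 pairs of a macrophage antibody with CD27, CD201 or P2X7R the ratios ran from 0.926 to 1.24 with a median of 1.04, and 0 intervals lay above 1. CD61, CD274 and CD357 were left out of this count because over 80% of cells held their tags.

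Cells with more tags of other antibodies were more often tagged. The tagged share was 9.77% (8.21 to 11.5) in the lowest tertile of cells by tags of the other 9 antibodies, 11.6% (9.79 to 13.6) in the middle and 13.2% (11.3 to 15.2) in the highest tertile, a ratio of 1.35 (1.06 to 1.72) between highest and lowest. Its interval includes 1 at a minimum of 50 tags (1.07, 0.581 to 1.94) and without cells with an excess of overlapping fragments (1.30, 0.999 to 1.69). The same ratio, for the share of cells with a tag against the remaining antibodies, was 1.24 for CD68, 1.13 for CD163 and 2.86 for CD206, where the lowest tertile held 13 cells with a CD206 tag. Among the other antibodies found in fewer than 80% of cells it ran from 1.08 for CD106 to 1.43 for CD201. Per 100 other tags there were 0.712 macrophage tags (0.609 to 0.828) in the lowest, 0.490 in the middle and 0.442 in the highest tertile. The tertiles are cut by the same other tags that form the divisor, so a fall is partly built in. Each of the other 9 antibodies, set against its own remaining antibodies, also fell from the lowest to the highest tertile. CD27 went from 4.25 to 2.36 and MERTK from 3.63 to 1.75, while CD206 went from 0.0547 to 0.0599. The tagged share was 11.8%, 10.7% and 11.8% across tertiles of nuclear fragments.

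The cell with the most macrophage tags was far from the others in its in-house tags and within their range in its chromatin. It held 25 CD68 and 5 CD163 tags and 0 CD206 tags, and with them 64 MERTK, 13 CD183 and 8 CD106 tags, the highest MERTK and CD183 counts of all kept cells. Its TotalSeq-A counts were 35 for CD274, 5 for P2X7R, 1 each for CD61 and CD357, and 0 for CD27 and CD201. It had 11134 nuclear fragments, 1584 UMIs, 68.8% of fragments in peaks and TSS enrichment of 6.70. At macrophage genes, Cx3cr1 included, it had 11 fragments (988 FPM, above 76.3% of cells) and at HSC genes 40 (3593 FPM, above 88.8%). It had 0 fragments at Adgre1, Cd68, Cd163, C1qa, C1qb and C1qc, and 1 each at Mrc1, Csf1r and Mertk, none of these at a promoter. A count of 0 at 1 gene in 1 cell is too few to place that gene.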

How the data were processed

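Open chromatin, RNA and antibody tags were measured in 3 libraries of 1 pool of long-term HSCs. The authors processed ATAC and RNA with Cell Ranger ARC 2.0.2 (mm10), which collapsed duplicate read pairs and shifted fragment ends for the transposase, and made tag counts with CITE-seq-Count (version not given in the sources used here). All deposited values used here are counts without normalization. Per the file headers, the antibody table holds 3724 of 4369 called cells.

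Here, 95 of these cells with fewer than 10 tags were left out, and 0 of the remaining 3629 failed filters on peak fragments, nucleosome signal or TSS enrichment. Doublets were not removed. Fragments were counted over 32546 GENCODE M21 genes with 2000 bp upstream, or within 1000 bp of the start, and scaled by nuclear fragments. Log2 ratios had 0.5 added to each count. Intervals (95%) were exact binomial, Poisson or conditional binomial ones and cover counting error only. With 1 pool no test was possible. The study diluted some antibodies with unlabelled antibody, so tag counts do not compare antigens.

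The cells, gene lists and named genes (the macrophage, antigen, factor, Fc receptor and HSC lists, and the 5 genes ranked first by either end of the interval) were chosen with earlier results of these data known. Ratios were tested on simulated data. Python 3.11.15 with numpy 2.4.6, scipy 1.17.1 and pandas 2.3.3 was used. Alternatives changed the tag minimum, the definition of tagged cells, the window, the scaling and the cells included. The values of 1 gene that this rule names are not reported here.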

Additional observations from a re-analysis of the deposited data

Results flagged for a closer look

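The 95 cells left out for fewer than 10 tags, which enter no comparison above, also held macrophage antibody tags. There were 6 such tags in 4 of the 95 cells, or 4.21% of them (exact binomial interval 1.16 to 10.4), beside 11.5% of kept cells. The 95 cells had a median of 8 tags over 12 antibodies. Macrophage tags count towards the minimum, so the cut itself lowers the share of left-out cells that hold one. These tags were noted because they lie outside the cells compared.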

How the results depend on the processing

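No paired analysis was possible because both groups come from 1 pool of cells and carry no replicate numbers. The log2 ratio at macrophage genes was below 0 in 17 of 18 alternatives, with an interval below 0 in 9 of them. It was 0.0172 (-0.11 to 0.14) in cells tagged by CD163 alone, -0.0212 in cells tagged by CD206 alone, -0.17 in cells with 2 or more tags and -0.0201 without Cx3cr1, the last chosen after seeing the data along with the settings on 3 or more tags and on the cell of most tags. At HSC genes the ratio stayed between -0.0123 and 0.0738 over 17 alternatives, with 0.0631 for CD163 alone, 0.0501 (0.01 to 0.09) in the highest tertile of other tags and 0.0738 at 3 or more tags. The count of 153 genes past 1.5-fold was 140 at a minimum of 50 tags and 1635 at 2 or more tags, 4740 at 3 or more, 346 for CD68 alone, 2505 for CD163 alone, 2025 for CD206 alone, 372 and 285 in the lowest and middle tertiles of other tags and 2111 at a minimum of 20 fragments. It was 0 at a minimum of 1000 fragments, 1251 at a lower limit on the ratio and 5 at a ratio of 2. The 153 were among 20514 genes, and the number of genes tested in the other settings is not given. Against the same 3213 untagged cells, CD68 alone had 264 cells, 2 or more tags 85, CD206 alone 73, CD163 alone 61 and 3 or more tags 26. The count was larger the fewer these cells were, so it cannot be read as a difference that grows with tags. The ratio of median fragments was 1.04 at 2 or more tags, and within 0.992 and 1.01 in the other alternatives. The ratio of tagged shares between the highest and lowest tertiles ran from 1.07 to 1.57, with an interval that includes 1 at a minimum of 50 tags (0.581 to 1.94) and without cells with an excess of overlapping fragments (0.999 to 1.69). The summed co-occurrence of the 3 tags ran from 1.28 (0.744 to 2.04) to 1.87 (0.510 to 4.79) times that of independent scattering, and the interval includes 1 in every alternative. Thinning to 6000 fragments left 387 tagged and 2998 untagged cells.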

Other observations

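Of the 3 pairs of in-house antibodies without a macrophage antibody, 2 had an interval above the value of independent scattering. CD183 and MERTK were found together in 114 cells against 90.6 (ratio 1.26, exact Poisson interval 1.04 to 1.51) and CD106 and MERTK in 438 against 370 (1.18, 1.07 to 1.30), while CD106 and CD183 met in 62 against 57.0 (1.09, 0.833 to 1.39). The 3 pairs among CD27, CD201 and P2X7R lay between 1.01 and 1.04, and the interval of each included 1. Of the 9 pairs of CD106, CD183 or MERTK with one of these, P2X7R and MERTK had an interval above 1 (585 cells against 533, 1.10, 1.01 to 1.19). Tags that matched no antibody had a median of 4 per cell in both groups. The tagged share was 10.6%, 10.0% and 14.6% from the lowest to the highest tertile of unmatched tags, and 10.6%, 12.1% and 11.7% across tertiles of RNA UMIs.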
